A study of Homo sapiens with 13 samples.

Results

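The IFIT and OAS antiviral families were followed as 8 genes, IFIT1, IFIT2, IFIT3 and IFIT5 and OAS1, OAS2, OAS3 and OASL, taken by their symbols from 22613 gene entries measured by RNA sequencing. The cells were LNCaP-abl, a prostate cancer line derived from LNCaP that grows without androgen, kept at passage 53 to 60 in medium with charcoal-stripped serum. Each of 12 libraries came from cells transfected with a pool of siRNAs against FOXM1, FOXA1, BRCA2, BRCA1, RAD21, KDM1A, CTCF, EZH2, PCAT1, EED, MALAT1 or SMARCA4, and 1 library, labelled siControl2 and called siControl here, came from cells given control siRNA. All 13 cultures were transfected with siRNA, and RNA was taken 72 h later; cells without transfection were not analysed here. Each group had 1 library of a single line, so no difference between groups was tested and no value carries a replicate error.

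IFIT and OAS genes are switched on in infected or interferon-treated cells through interferon-stimulated response elements in their promoters. IFIT proteins bind foreign RNA by its 5′ end: IFIT1 recognises capped RNA that lacks methylation next to the cap, IFIT2 and IFIT3 join it in complexes, and IFIT5 binds RNA with a 5′ triphosphate. OAS1, OAS2 and OAS3 sense double-stranded RNA and make 2′-5′-linked oligoadenylates, second messengers of an RNA decay pathway. OASL lacks this activity and assists the RNA sensor RIG-I. IFIT1, IFIT2, IFIT3 and OASL can also be induced directly by IRF3, ahead of interferon.

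In the RefSeq gene order of GRCh38.p14, IFIT2 and IFIT3 are neighbours on chromosome 10, as are IFIT1 and IFIT5. OAS1, OAS3 and OAS2 stand side by side on chromosome 12, and OASL lies elsewhere on the same chromosome. RefSeq promoters of that build were held for 5 of the 8 members, IFIT1, IFIT3, IFIT5, OAS1 and OAS3, with 2 starts for IFIT3; IFIT2, OAS2 and OASL had none. Windows from 170 bases before to 10 after each start are shown so that members with large and small differences between libraries can be compared by their response elements. All are on the + strand: IFIT1 at chr10:89392453-89392632, IFIT3 at chr10:89327827-89328006 and chr10:89332359-89332538, IFIT5 at chr10:89414398-89414577, OAS1 at chr12:112906792-112906971 and OAS3 at chr12:112938304-112938483. Capitals mark every match, on either strand, to GAAANNGAAA or to GAAANGAAA, the paired GAAA core of the response element with a spacing of 2 or 1 bases.
IFIT1: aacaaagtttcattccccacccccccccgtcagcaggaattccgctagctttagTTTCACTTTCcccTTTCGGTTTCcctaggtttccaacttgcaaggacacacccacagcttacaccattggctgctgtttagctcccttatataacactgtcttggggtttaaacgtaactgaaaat
IFIT3 upstream start: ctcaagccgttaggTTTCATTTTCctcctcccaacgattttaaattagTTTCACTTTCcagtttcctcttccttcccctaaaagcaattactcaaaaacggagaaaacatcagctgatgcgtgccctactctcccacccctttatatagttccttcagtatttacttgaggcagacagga
IFIT3 downstream start: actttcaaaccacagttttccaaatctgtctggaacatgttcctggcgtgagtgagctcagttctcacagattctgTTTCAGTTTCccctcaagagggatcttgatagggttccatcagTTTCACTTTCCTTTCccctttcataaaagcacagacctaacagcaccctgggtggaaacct
IFIT5: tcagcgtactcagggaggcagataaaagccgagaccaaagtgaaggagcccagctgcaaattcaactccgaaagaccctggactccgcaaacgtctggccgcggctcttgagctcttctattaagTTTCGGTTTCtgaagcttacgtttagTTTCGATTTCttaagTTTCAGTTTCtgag
OAS1: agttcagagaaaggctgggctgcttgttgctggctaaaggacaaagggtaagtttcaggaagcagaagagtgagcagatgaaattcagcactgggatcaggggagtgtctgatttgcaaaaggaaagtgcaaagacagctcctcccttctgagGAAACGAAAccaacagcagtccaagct
OAS3: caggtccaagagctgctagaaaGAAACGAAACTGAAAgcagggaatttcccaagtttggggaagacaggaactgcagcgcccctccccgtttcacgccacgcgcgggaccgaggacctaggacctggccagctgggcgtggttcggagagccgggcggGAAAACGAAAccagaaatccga

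Of these members, only OAS1 had no match to GAAANNGAAA in the 300 bases searched, and it held 1 match to GAAANGAAA, GAAACGAAA, beginning 17 bases before the start. IFIT1 held 2 matches to GAAANNGAAA, read on the other strand as TTTCACTTTC and TTTCGGTTTC, which began 116 and 103 bases before the start. IFIT3 held 2 at each of its starts, one of the downstream pair overlapping a GAAANGAAA match. IFIT5 held 3, the most at a single start, the last of them lying across the start itself. OAS3 held 2, of which GAAACTGAAA overlapped a GAAANGAAA match at 148 to 140 bases before the start. Over 35116 RefSeq promoters of the same length, 3.57% held GAAANNGAAA, 3.12% held GAAANGAAA and 6.40% held either. A match of letters is a description and no evidence of binding.

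Levels are given as FPKM, which divides a gene's fragments by its transcript length and by the library's mapped fragments. The deposited values also share a common distribution across libraries, so comparisons between genes per length, sums and shares are approximate. Differences from siControl are on the log2(FPKM + 1) scale, which understates changes of genes with low FPKM, and a difference of at least 1 is called 2-fold. Read depth is unknown, since no counts were used. Where a transcript stood lower in these bulk libraries, fewer cells with it and less of it per cell cannot be told apart. The siRNA target was lowest in its own library for CTCF, EED, EZH2, FOXA1, FOXM1, KDM1A, RAD21 and SMARCA4, with differences from siControl of -0.95 to -3.84, and was the 3rd lowest of 13 for BRCA1 (-2.10). The target of siPCAT1 was not analysed here, so that library has no such check. BRCA2 in siBRCA2 differed by -0.93 but was the 9th lowest of 13, and MALAT1 in the library labelled siMALAT1 stood above siControl (0.38), so this library is named by its label throughout and says nothing about lower MALAT1. Among luminal prostate markers, KRT8 reached 223 FPKM in siFOXA1, while KLK2 was at 1.70 FPKM or less and KLK3 at 0.524 FPKM or less.

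All 8 members were highest in siFOXM1, next highest in siFOXA1 and then in siBRCA2. That order of the 3 top libraries held for 55 of the 15780 genes kept after a filter on low values (0.349%), the 8 members included, and 10.4% of the kept genes were highest in siFOXM1. The summed FPKM of the 8 members was 1322 in siFOXM1, 317 in siFOXA1 and 88.6 in siBRCA2, lay between 16.0 and 44.9 in the other 9 knockdowns, and was 15.7 in siControl. The size of the difference ran from OASL, the member with the largest difference in 11 of 12 knockdowns, to OAS3, the lowest in 10 of 12, and IFIT5, the lowest in the other 2.

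**Figure D1:**
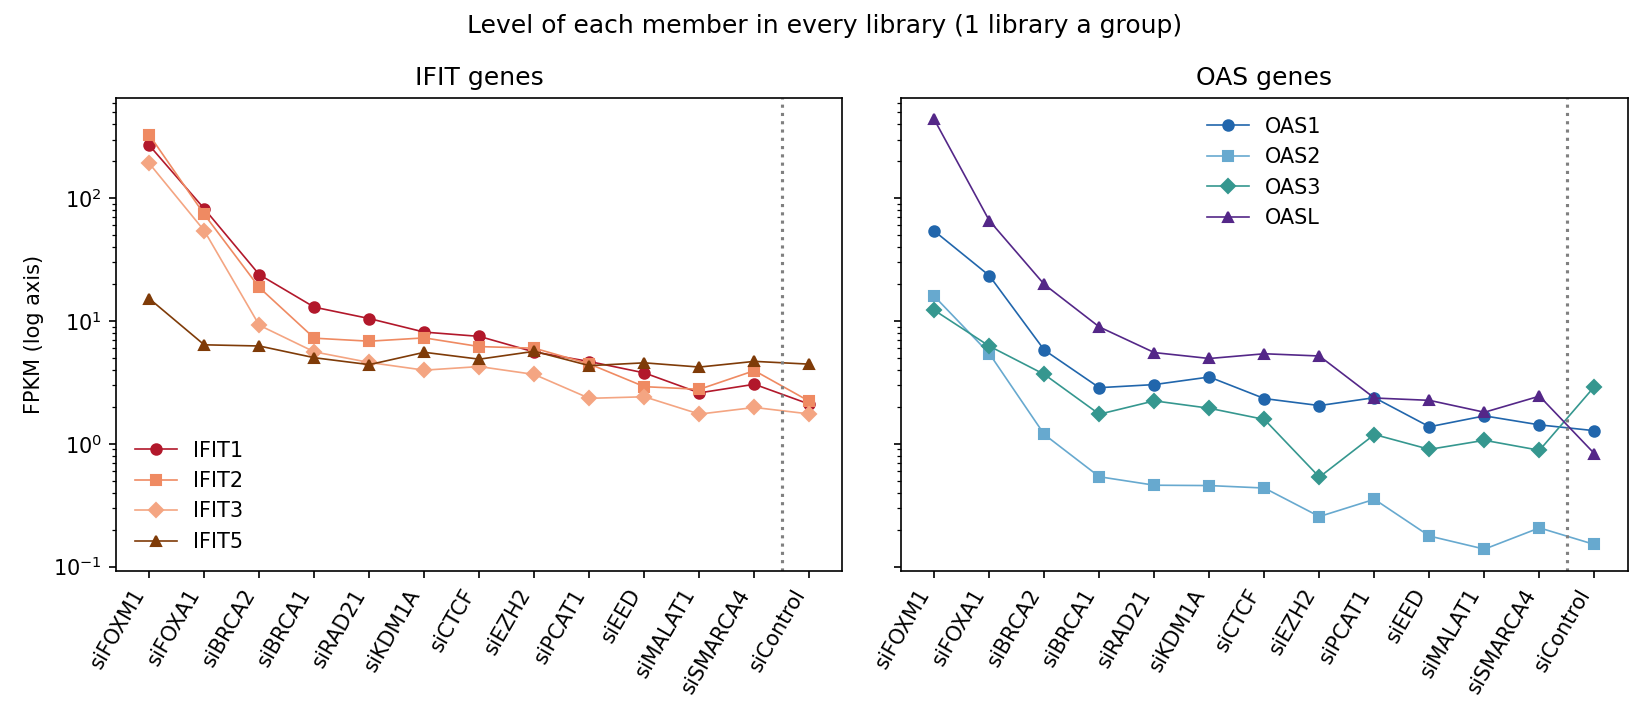
FPKM on a log axis of the 4 IFIT genes (left) and the 4 OAS genes (right) in 12 knockdown libraries, ordered by the median difference of the 8 members, and in siControl at the right; each point is 1 library and lines only join the points of a gene. All 8 genes peak in siFOXM1, IFIT5 stays between 4.22 and 6.40 FPKM outside it, and OAS3 is higher in siControl than in 9 knockdowns.

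IFIT1, the sensor of cap-unmethylated RNA, stood at 269 FPKM in siFOXM1, 82.1 in siFOXA1, 23.8 in siBRCA2, 12.96 in siBRCA1, 10.5 in siRAD21, 8.12 in siKDM1A, 7.49 in siCTCF, 5.59 in siEZH2, 4.68 in siPCAT1, 3.78 in siEED, 3.05 in siSMARCA4, 2.60 in the library labelled siMALAT1 and 2.10 in siControl. All 12 knockdowns lay above siControl, 8 of them by 2-fold or more, and the differences reached 6.44 in siFOXM1, 4.74 in siFOXA1 and 3.001 in siBRCA2. Among all entries of a library, IFIT1 ranked 225th from the highest in siFOXM1 and 12244th in siControl.

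IFIT2, which partners IFIT1 and is linked to cell death in antiviral responses, reached 327 FPKM in siFOXM1 and 73.8 in siFOXA1, was at 18.7 in siBRCA2, 7.29 in siKDM1A, 7.25 in siBRCA1, 6.84 in siRAD21, 6.19 in siCTCF, 6.005 in siEZH2, 4.47 in siPCAT1, 3.94 in siSMARCA4, 2.92 in siEED and 2.78 in the library labelled siMALAT1, and was at 2.22 in siControl. Again siControl was lowest, and 8 knockdowns were 2-fold higher. IFIT3, which stabilises the IFIT1 complex, was at 192 FPKM in siFOXM1, 54.3 in siFOXA1, 9.23 in siBRCA2, 5.61 in siBRCA1, 4.59 in siRAD21, 4.26 in siCTCF, 3.98 in siKDM1A, 3.67 in siEZH2, 2.42 in siEED, 2.35 in siPCAT1, 1.98 in siSMARCA4 and 1.75 in the library labelled siMALAT1, against 1.75 in siControl. It was 2-fold higher in 5 knockdowns, siFOXM1, siFOXA1, siBRCA2, siBRCA1 and siRAD21. Below siBRCA2 the libraries, siControl included, spanned 1.36 log2 units for IFIT2 and 1.27 for IFIT3, with no replicate to say which neighbours differ.

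IFIT5, the member that binds 5′ triphosphate RNA and whose promoter held 3 matches, varied least of the IFIT genes. It was at 15.2 FPKM in siFOXM1, 6.40 in siFOXA1, 6.26 in siBRCA2, 5.67 in siEZH2, 5.56 in siKDM1A, 5.02 in siBRCA1, 4.89 in siCTCF, 4.69 in siSMARCA4, 4.56 in siEED, 4.41 in siRAD21, 4.33 in siPCAT1, 4.22 in the library labelled siMALAT1 and 4.45 in siControl. Only siFOXM1 was 2-fold higher (1.57), siFOXA1 differed from siBRCA2 by 0.028, and the 10 libraries outside siFOXM1, siFOXA1 and siBRCA2 spanned 0.35 log2 units. IFIT5 was the most abundant IFIT gene per length in siControl, at 42.3% of the summed IFIT FPKM, and the least abundant in siFOXM1, at 1.89%.

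OASL, the member without synthetase activity, had the widest range of the 8. It stood at 437 FPKM in siFOXM1, 65.6 in siFOXA1, 19.8 in siBRCA2, 8.94 in siBRCA1, 5.53 in siRAD21, 5.41 in siCTCF, 5.19 in siEZH2, 4.95 in siKDM1A, 2.44 in siSMARCA4, 2.36 in siPCAT1, 2.26 in siEED and 1.81 in the library labelled siMALAT1, and at 0.831 in siControl. Every knockdown was above siControl, 8 of them 2-fold, with differences of 7.90 in siFOXM1 and 5.19 in siFOXA1. OASL ranked 139th of the entries in siFOXM1 and 14757th in siControl, and supplied 84.2% of the summed OAS FPKM in siFOXM1, 37.6% to 65.2% in the other 11 knockdowns and 16.0% in siControl.

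Of the catalytic synthetases, OAS1 was at 54.0 FPKM in siFOXM1, 23.4 in siFOXA1, 5.80 in siBRCA2, 3.50 in siKDM1A, 3.04 in siRAD21, 2.86 in siBRCA1, 2.38 in siPCAT1, 2.34 in siCTCF, 2.05 in siEZH2, 1.69 in the library labelled siMALAT1, 1.43 in siSMARCA4 and 1.38 in siEED, and at 1.28 in siControl. It was lowest in siControl and 2-fold higher in the 3 top libraries alone, with siKDM1A just short of that (0.98). OAS2 was the scarcest member per length in siControl, where it stood at 0.152 FPKM, against 15.9 in siFOXM1, 5.44 in siFOXA1, 1.19 in siBRCA2 and 0.139 to 0.540 in the other 9 knockdowns. Its differences of 3.88 in siFOXM1 and 2.48 in siFOXA1 were the only ones at 2-fold. With a pseudocount of 0.1 in place of 1 they were 5.99 and 4.46, and 5 more knockdowns passed 2-fold, siBRCA2 (2.36), siBRCA1 (1.35), siRAD21 (1.16), siKDM1A (1.15) and siCTCF (1.09).

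OAS3, the synthetase that senses long double-stranded RNA, was the exception. It was at 12.2 FPKM in siFOXM1, 6.25 in siFOXA1, 3.68 in siBRCA2, 2.24 in siRAD21, 1.95 in siKDM1A, 1.74 in siBRCA1, 1.58 in siCTCF, 1.19 in siPCAT1, 1.07 in the library labelled siMALAT1, 0.901 in siEED, 0.886 in siSMARCA4 and 0.536 in siEZH2, against 2.93 in siControl. Here siControl was the 4th highest of 13, above 9 knockdowns. Only siFOXM1 was 2-fold higher (1.75), and siEZH2 (-1.35), siSMARCA4 (-1.06) and siEED (-1.05) were 2-fold lower. OAS3 made up 67.2% of the summed FPKM of the 3 synthetases in siControl and 14.9% to 39.0% in the knockdowns. Measured from the median of the other 11 knockdowns instead, OAS3 stood 2.36 higher in siFOXM1, 1.49 higher in siFOXA1 and 0.86 higher in siBRCA2, and -0.84 in siEZH2. In siControl it lay 0.56 above the median of the 12 knockdowns, whereas the other 7 members lay below that median, by 0.13 (IFIT5) to 1.78 (OASL).

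**Figure D2:**
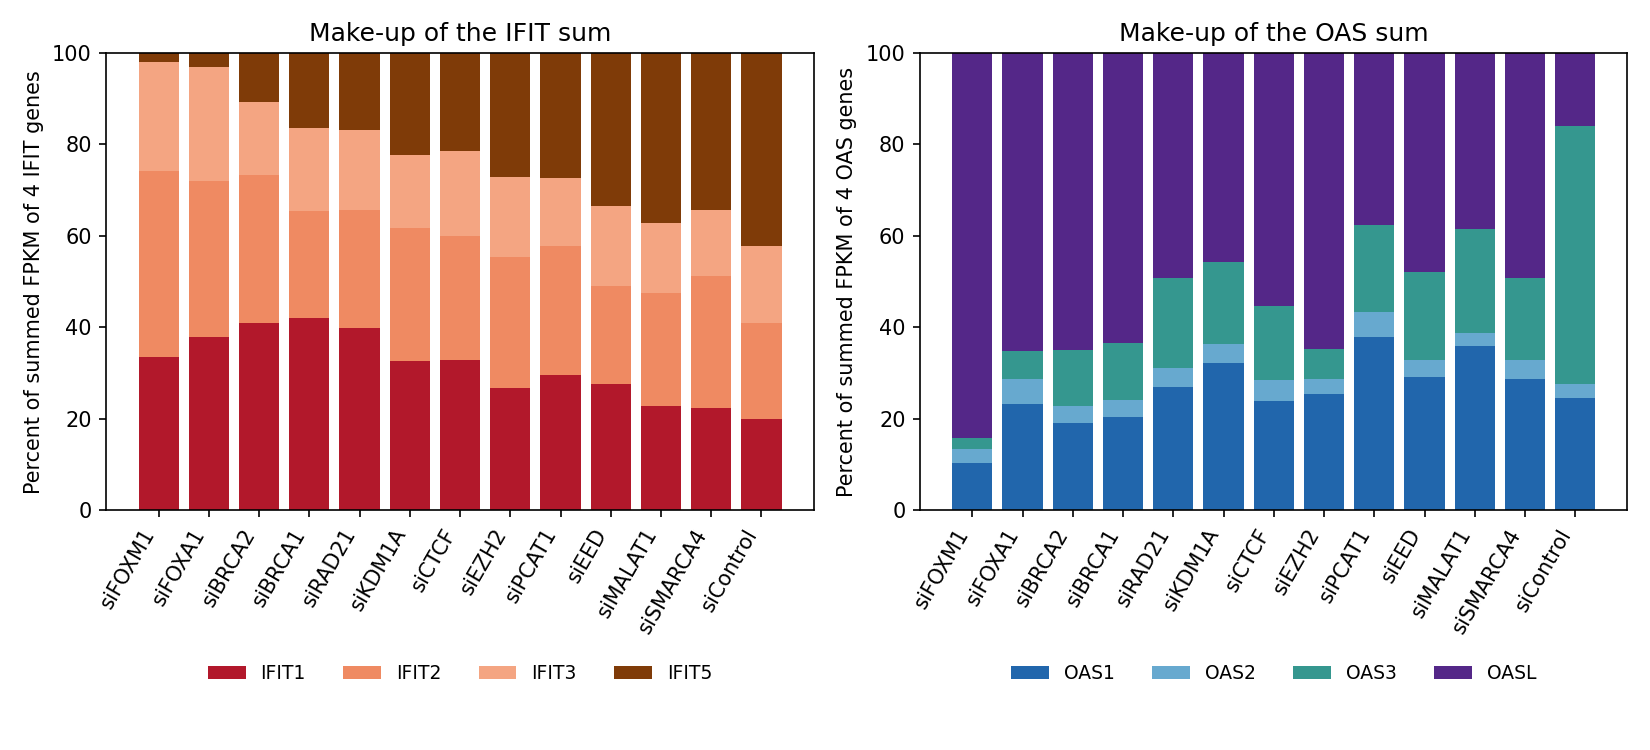
Share in percent of each gene in the summed FPKM of the 4 IFIT genes (left) and of the 4 OAS genes (right), in 12 knockdown libraries and in siControl at the right; each bar is 1 library. IFIT5 takes 1.89% in siFOXM1 and 42.3% in siControl, and OASL takes 84.2% in siFOXM1 and 16.0% in siControl.

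By knockdown, all 8 members were 2-fold higher in siFOXM1, where 2.59% of the kept genes were, and their median difference was 5.36 against 0.022 over all kept genes. In siFOXA1, 6 of 8 were 2-fold higher (background 3.52%, median 3.88), IFIT5 at 0.44 and OAS3 at 0.88 being the others. In siBRCA2, 5 of 8 were (0.767%, median 1.74), with OAS2 at 0.93, IFIT5 at 0.41 and OAS3 at 0.25 short of it; BRCA2 itself was only the 9th lowest of 13 there. The IFIT median exceeded the OAS median in these 3 libraries, at 6.29 and 4.23 in siFOXM1, 4.43 and 2.95 in siFOXA1, and 2.26 and 1.25 in siBRCA2. This was not particular to them, as it held in every other knockdown but the library labelled siMALAT1 (0.106 and 0.111). The scale also understates OAS2, whose FPKM in siFOXM1 was 104.9 times that in siControl, near the 109.6 times of IFIT3.

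A middle set of libraries held 3 or 4 members at 2-fold. In siBRCA1 there were 4, OASL (2.44), IFIT1 (2.17), IFIT2 (1.36) and IFIT3 (1.26), where 0.45% of the kept genes were. In siRAD21 there were also 4 (background 0.906%), IFIT1 (1.89), OASL (1.83), IFIT2 (1.29) and IFIT3 (1.02). OASL, IFIT1 and IFIT2 passed in siKDM1A (background 0.754%), siCTCF (1.27%) and siEZH2 (0.894%), with OASL at 1.70 in siKDM1A, 1.81 in siCTCF and 1.76 in siEZH2. No member was 2-fold higher in siPCAT1 (background 0.323%), siEED (0.817%), siSMARCA4 (0.494%) or the library labelled siMALAT1 (0.387%), where the highest member, OASL, differed by 0.88 in siPCAT1, 0.83 in siEED, 0.91 in siSMARCA4 and 0.62 in the library labelled siMALAT1. Lower by 2-fold was OAS3 alone, in siEZH2 (background 3.09%), siSMARCA4 (1.97%) and siEED (0.741%). None of these OAS3 calls held against the median of the other 11 knockdowns, where the differences were -0.84 in siEZH2, -0.54 in siSMARCA4 and -0.53 in siEED. In the other 9 knockdowns no member was 2-fold lower, where 3.6% of the kept genes were in siFOXM1, 4.22% in siFOXA1, 0.76% in siBRCA2, 0.944% in siBRCA1, 1.88% in siRAD21, 1.55% in siKDM1A, 2.85% in siCTCF, 1.33% in siPCAT1 and 1.57% in the library labelled siMALAT1.

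**Figure D3:**
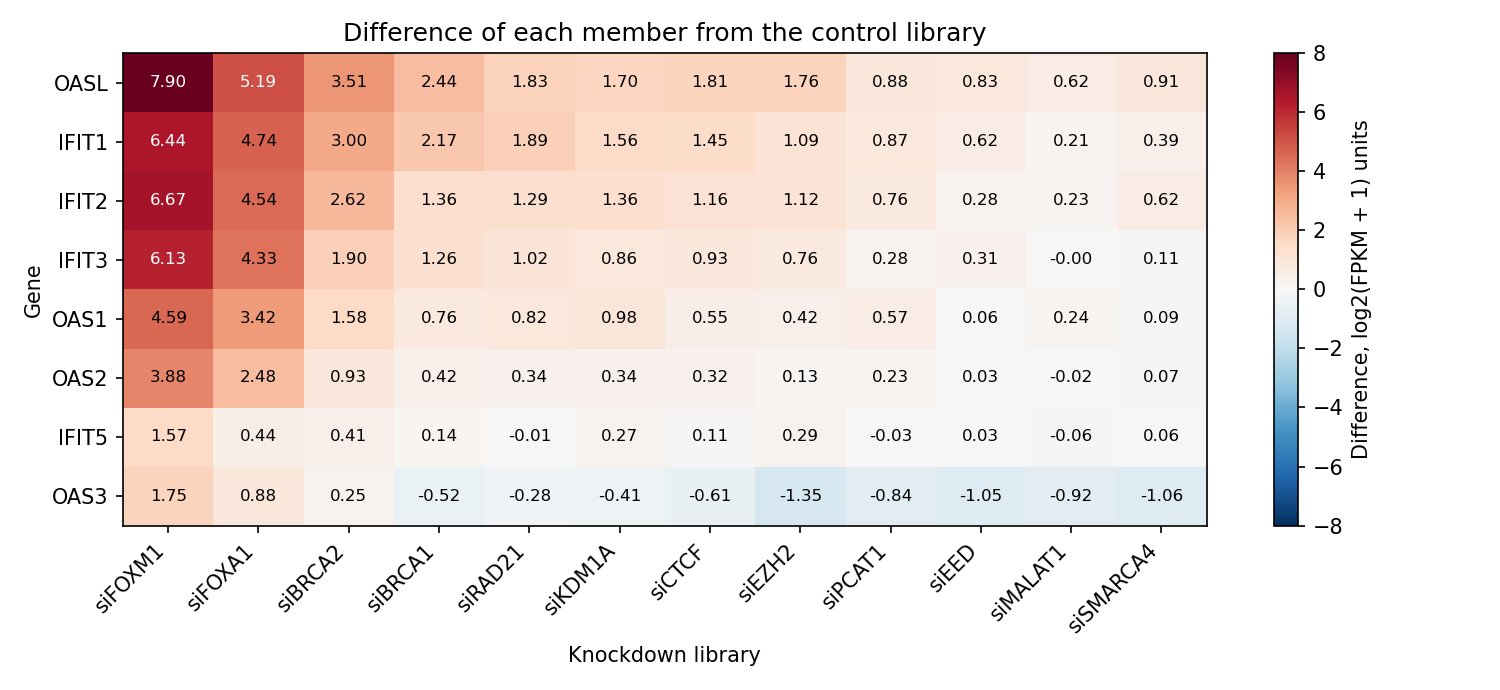
Difference from siControl in log2(FPKM + 1) units for each member (rows, by median) in each of 12 knockdown libraries (columns, by median), with 1 library a group. The 3 left columns hold the large positive values, up to 7.90 for OASL in siFOXM1, and the OAS3 row holds the values below -1.

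The 12 comparisons share the 1 siControl library, so a low value there raises every one of them. OASL, IFIT1, IFIT2 and OAS1, 4 of the 8, were lowest of all 13 libraries in siControl, as were 4.77% of the kept genes. Measured instead from the median of the other 11 knockdowns, 8 of 8 members were 2-fold higher in siFOXM1 (background 1.44%), 7 of 8 in siFOXA1 (2.4%, IFIT5 the exception) and 5 of 8 in siBRCA2 (1.03%). None was in siBRCA1 (0.222%), siRAD21 (0.475%), siKDM1A (0.311%), siCTCF (0.564%) or siEZH2 (0.323%), the 5 libraries of the middle set. Nor was any in siPCAT1 (0.298%), siEED (1.01%), siSMARCA4 (0.12%) or the library labelled siMALAT1 (0.482%). The calls in the middle set thus depended on the reference, while 5 or more members passed with either reference in siFOXM1, siFOXA1 and siBRCA2. For every member but OAS3, siControl lay below the median of the 12 knockdowns. A low siControl value and a rise shared by most knockdowns therefore cannot be told apart here. Against the other knockdowns, IFIT1 (-1.34), OASL (-1.19) and IFIT2 (-1.05) were 2-fold lower in the library labelled siMALAT1 (background 0.387%), IFIT1 in siSMARCA4 (-1.17, background 0.203%) and IFIT2 in siEED (-1.001, background 0.475%). No member was 2-fold lower in siFOXM1 (1.77%), siFOXA1 (2.49%), siBRCA2 (0.494%), siBRCA1 (0.583%), siRAD21 (0.646%), siKDM1A (0.551%), siCTCF (0.83%), siEZH2 (1.35%) or siPCAT1 (0.469%).

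Between the siFOXM1 and siFOXA1 libraries, set directly against each other, all 8 members were higher in siFOXM1, as were 49.2% of the kept genes. The ratio of FPKM was 6.65 for OASL, 4.44 for IFIT2, 3.53 for IFIT3, 3.28 for IFIT1, 2.92 for OAS2, 2.38 for IFIT5, 2.31 for OAS1 and 1.96 for OAS3. The balance within the families differed as well: IFIT2 had 1.22 times the FPKM of IFIT1 in siFOXM1, 0.899 times in siFOXA1, 0.559 times in siBRCA1, the lowest, 1.29 times in siSMARCA4, the highest, and 1.05 times in siControl. OASL had 1.62 times the FPKM of IFIT1 in siFOXM1, 0.7995 times in siFOXA1 and 0.395 times in siControl.

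Reads shared between near-identical copies or overlapping transcripts can be assigned to either gene. IFIT1B, the neighbouring relative of IFIT1, was at 5.52 FPKM in siFOXM1, 1.83 in siFOXA1, 0.534 in siBRCA2, at most 0.246 in the other 9 knockdowns and 0.00888 in siControl. That was 1.38% to 2.45% of IFIT1 in the 12 knockdowns and 0.422% in siControl, and whether these are reads of IFIT1 was not tested. TMEM173, the adaptor STING that acts below the OAS-related sensor cGAS, did not share the order, with 14.8 FPKM in siFOXA1, 1.70 in siFOXM1 and 1.51 in siControl.

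Of other genes of the oligoadenylate pathway, ABCE1, a ribosome recycling factor, was at 30.1 FPKM in siFOXM1, 32.8 in siFOXA1 and 51.4 in siControl, differences of -0.75 in siFOXM1 and -0.63 in siFOXA1. Neither ABCE1 nor the oligoadenylate-degrading enzyme PDE12, CNP, AKAP7 or ELAC1 was 2-fold from siControl in any knockdown. None of 6 cap enzymes was either. These were RNMT and its activator FAM103A1, the cap 2′-O-methyltransferases FTSJD2 and FTSJD1, the capping enzyme RNGTT and the cap-adjacent adenosine methyltransferase PCIF1, with medians from -0.097 to 0.26.

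RNA was taken at 72 h alone, so whether sensing and signalling genes rose before or after the IFIT and OAS genes was not tested. Of 12 double-stranded RNA sensing genes, 4 were 2-fold higher in siFOXM1 (background 2.59%) and 2 in siFOXA1 (3.52%). In the other 10 knockdowns 0 were (0.323% to 1.27%). DDX58, which encodes RIG-I, was at 28.4 FPKM in siFOXM1, 14.1 in siFOXA1 and 2.43 in siControl, and the adaptor TICAM1 was the lowest of the list in siFOXM1, at 4.14 FPKM against 4.34 in siControl. The others past 2-fold, named after their values were seen, were IFIH1 (2.55 in siFOXM1, 1.45 in siFOXA1), DHX58 (2.11 in siFOXM1) and TLR3 (1.03 in siFOXM1). The list median was 0.59 in siFOXM1 and 0.12 in siFOXA1. Of 13 kept interferon receptor and ISGF3 genes, 5 were 2-fold higher in siFOXM1 (background 2.59%) and 2 in siFOXA1 (3.52%). IRF9, the DNA-binding subunit of the ISGF3 factor, stood at 81.7 FPKM in siFOXM1, 17.3 in siFOXA1, 6.64 in siBRCA2 and 4.28 in siControl, and the receptor chain IFNAR1 was lowest on the list in siFOXM1, at 5.74 FPKM against 12.3 in siControl (-0.98). Among the others counted, named after their values were seen, were IRF7 (1.83 in siFOXM1, 1.03 in siFOXA1), IRF1 (1.38 in siFOXM1) and USP18 (1.29 in siFOXM1).

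Interferon genes had rows for 4 of 10 listed, and 3 passed the filter on low values. IFNL1 was at 15.7 FPKM in siFOXM1, 3.20 in siFOXA1, 0.408 in siBRCA2, at most 0.225 in the other 9 knockdowns and 0.0145 in siControl. IFNB1, which was below the filter on its mean, stood at 4.93 FPKM in siFOXM1, 0.690 in siFOXA1, 0.295 in siBRCA2 and 0.0870 in siControl. IFNL2 and IFNL3, near-identical copies whose reads may be split, were at 5.03 and 4.66 FPKM in siFOXM1, 2.22 and 1.69 in siFOXA1, and 0.00633 and 0.0103 in siControl. The 3 IFNL genes passed the filter only through siFOXM1, their means over the other libraries being 0.357 FPKM for IFNL1, 0.228 for IFNL2 and 0.216 for IFNL3, so their place in that library is a description alone.

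Of 20 kept genes among 25 other antiviral interferon-stimulated genes, 19 were 2-fold higher in siFOXM1 (background 2.59%) and 13 in siFOXA1 (3.52%). In siBRCA2 6 were (0.767%), and 0 to 4 were in the other 9 knockdowns (0.323% to 1.27%). IFI6, a mitochondrial and endoplasmic reticulum protein that limits cell death and flavivirus replication, had the largest difference in siFOXM1 (6.55). The exception there was MX1, a GTPase that blocks viral nucleocapsids and a common marker of interferon response, at 1.497 FPKM in siFOXM1, 1.11 in siFOXA1, 0.605 in siBRCA2 and 1.15 in siControl. The median of these 20 genes was 2.24 in siFOXM1 and 1.30 in siFOXA1. Measured from the median of the other 11 knockdowns, it was 2.09 in siFOXM1 and 1.19 in siFOXA1. The counts were taken against siControl alone, the lowest of the 13 libraries for ISG15, ISG20, IFI6, IFI27, IFI44 and RSAD2.

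**Figure D4:**
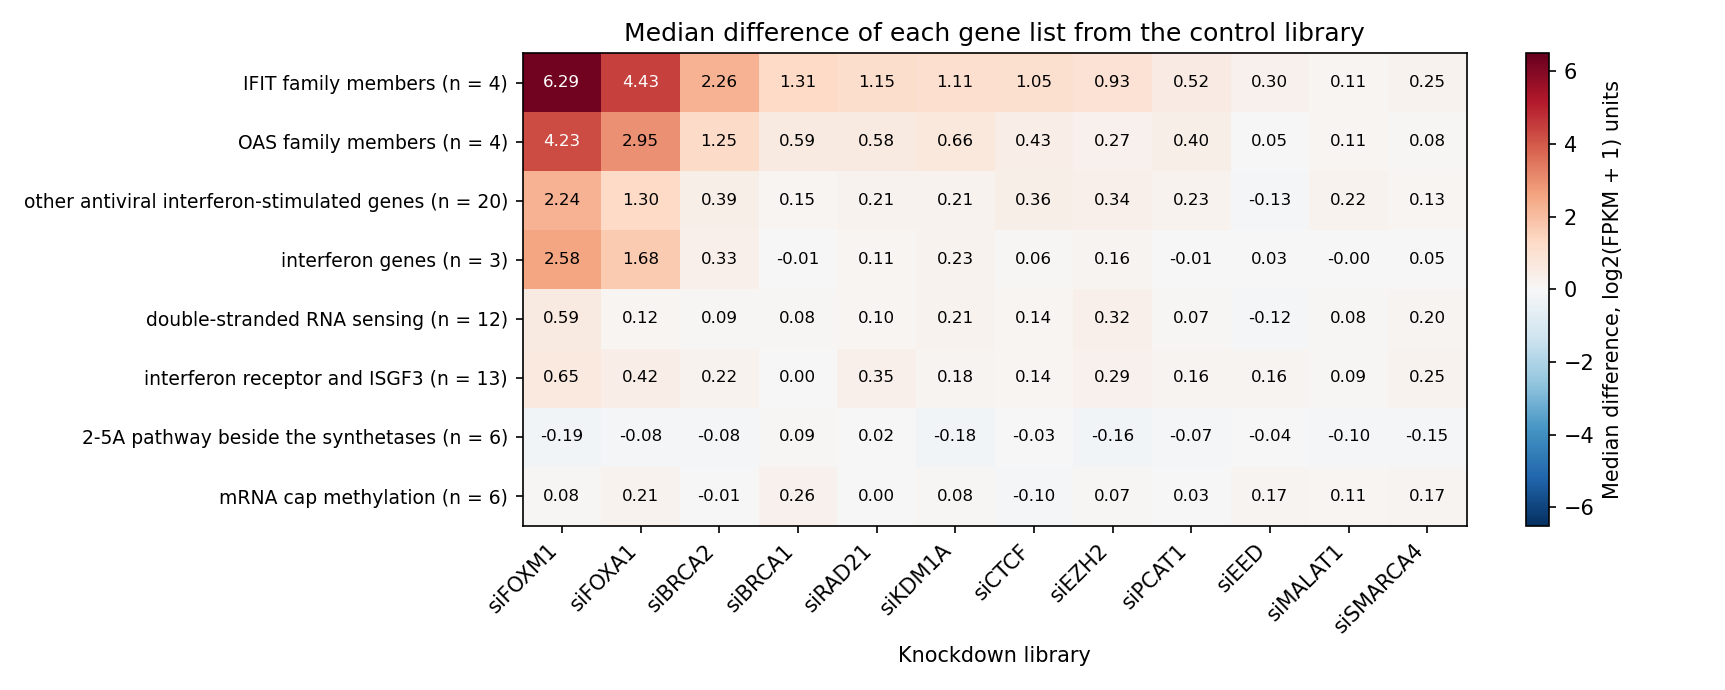
Median difference from siControl in log2(FPKM + 1) units of the kept genes of 8 lists (rows, with the number of kept genes) in each of 12 knockdown libraries (columns). The IFIT and OAS medians are 6.29 and 4.23 in siFOXM1, and those of the 2-5A pathway genes beside the synthetases and of the cap enzymes stay between -0.19 and 0.26 in all 12.

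Likeness of pattern was measured as the mean absolute gap, over the 13 libraries, between log2(FPKM + 1) profiles each centred on its own mean. The profiles were not scaled, so a gap reflects the size of a gene's range as well as its order of libraries. The members closest to each other were IFIT2 and IFIT3 (0.19), followed by IFIT1 and IFIT2 (0.23) and by OAS1 and OAS2 (0.24), and the farthest apart were IFIT5 and OASL (1.30). Of the members, IFIT5 had the smallest range (1.64 log2 units) and OASL the largest (7.90), though both had the same top libraries in the same order. By this measure OASL lay nearest to IFIT1 (0.27) and not to a synthetase, its gap to OAS1 being 0.65. The ranges of IFIT1 and OAS1 were 6.44 and 4.59 log2 units, and no distance free of range was taken between members. The gene nearest to IFIT5 was the transcription factor IRF1 (0.090), that nearest to OAS2 was the helicase-like antiviral gene DDX60 (0.12), and that nearest to OAS3 was IFI44 (0.26).

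Outside the 8, the genes nearest to their mean profile were BST2 (0.21), which tethers budding virions, IFI27 (0.23), the ubiquitin-like modifier ISG15 (0.25), IFI44 (0.26), RARRES3, a phospholipase gene also known as PLAAT4 (0.27), and DDX60 (0.28). ISG15 was at 595 FPKM in siFOXM1, 201 in siFOXA1, 96.7 in siBRCA2 and 14.6 in siControl, and RARRES3 was at 135 FPKM in siFOXM1, 41.3 in siFOXA1, 7.74 in siBRCA2 and 0.927 in siControl. The same 6 genes were nearest without the siFOXM1 library, and 4 of them, IFI44, DDX60, RARRES3 and BST2, without both siFOXM1 and siFOXA1.

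**Figure D5:**
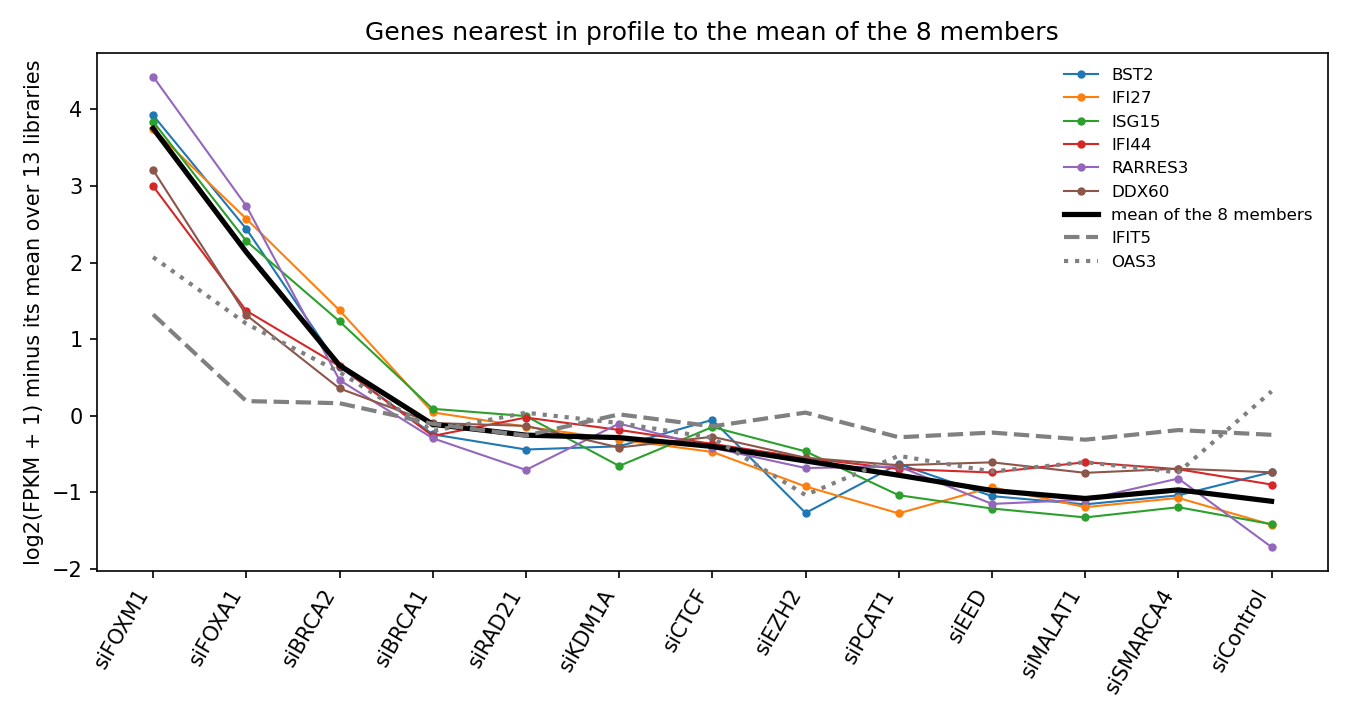
Profiles of the mean of the 8 members (black), the 6 nearest other genes (colours), IFIT5 (grey dashes) and OAS3 (grey dots), as log2(FPKM + 1) minus each gene's mean over 13 libraries, with siControl at the right. The 6 genes keep a mean gap of 0.21 to 0.28 from the black line, IFIT5 one of 0.75, and OAS3 one of 0.50 with its upturn in siControl.

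Markers of other cell types that respond to interferon were compared over the same libraries. Of 10 leukocyte markers, 3 had rows, and their summed level was 16.1 FPKM in siFOXM1, the highest, 13.3 in siFOXA1, 8.96 to 16.1 over the 12 knockdowns and 9.59 in siControl. The pan-leukocyte gene PTPRC was at 3.14 FPKM in siRAD21, where it was highest, and 0.1004 in siFOXA1, where it was lowest, and CD68, a lysosomal protein also made by other cells, was highest in siFOXM1 at 11.1 FPKM. Of 7 fibroblast markers, 4 had rows and summed to 3.21 FPKM in siFOXM1, 4.20 in siFOXA1 and 3.49 in siControl, and the 2 of 5 endothelial markers with rows to 1.15 FPKM in siFOXM1, 0.812 in siFOXA1 and 1.13 in siControl. None of the markers with a row was at 0 in any library, and the markers without a row could not be read. All libraries came from cultures of the LNCaP-abl line, and the part of other cell types in the IFIT and OAS levels was not tested.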

How the data were processed

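RNA from 13 LNCaP-abl cultures was sequenced, 1 library for each of 12 siRNA pools and 1 for control siRNA, 72 h after transfection, per the labels' protocols. The library kit was TruSeq RNA v2 (Illumina). The submitters' processing notes name TopHat, Cufflinks and the hg19 build, with no versions; strand and annotation were not given in the sources used here. As deposited by the authors, each file holds log2 values of FPKM for 22613 entries. Its floor equals log2(0.1), so the deposited log2 values were read as log2(FPKM + 0.1), an offset that no label states. Sorted values of the 13 libraries differed by at most 0.0562 on the log2 scale, so they had been brought to a common distribution, which no label records; a shift of most genes in a library cannot be seen in such values. No counts were used, so depth is unknown and no counting interval is given.

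FPKM were recovered by subtracting 0.1 and expressed as log2(FPKM + 1). Of all entries, 15780 with a mean of at least 0.5 FPKM over the 13 libraries were kept, and 759 entries of small RNAs were left out; all 8 members were kept. With 1 library a group, differences of at least 1 log2 unit were counted beside the percentage of kept genes past the same threshold (background), and nothing was tested. Nearest genes were sought among kept genes with a range of at least 1 log2 unit. The members and the gene lists were chosen with earlier results of these data known. Genes named were the members, the highest and lowest of each list in siFOXM1, all genes of lists of up to 6, interferon genes above 0.5 FPKM in any library, the 6 nearest genes and the nearest gene of each member. Alternatives were a pseudocount of 0.1, another reference, quantile normalization, centring, no filter, small RNA entries kept, and other measures of likeness. Functions were tested on simulated data. Python 3.11.15, numpy 2.4.6, pandas 2.3.3 and matplotlib 3.10.9 were used. Promoter sequences are RefSeq's on GRCh38.p14, matched by symbol; no hg19 coordinates were used. Single values of some listed genes are not reported here.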

Additional observations from a re-analysis of the deposited data

How the results depend on the processing

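No paired analysis was possible because each group had 1 library and the labels carry no replicate numbers, and for the same reason no replicate could be left out. Quantile normalization moved no member by more than 0.000328 log2 units and changed no count or median by a threshold. The libraries already shared a common distribution, with sorted values at most 0.0562 apart, so this outcome was nearly fixed in advance. Centring on the median of all kept genes, which was at most 0.054, left every count within 1.5 times and took the siBRCA1 median to 0.998, under the 2-fold line. With a pseudocount of 0.1, members 2-fold higher numbered 5 in siCTCF and 6 in siKDM1A, where there had been 3 in each. They numbered 2 in siPCAT1 and 1 each in siEED, siSMARCA4 and the library labelled siMALAT1, where there had been 0. Smaller relative rises took the count from 4 to 6 in siBRCA1 and in siRAD21. In siEZH2 it went from 3 to 4, in siBRCA2 from 5 to 6 and in siFOXA1 from 6 to 7. All 8 still passed in siFOXM1. The medians passed 1 in siCTCF (1.16), siKDM1A (1.27) and siRAD21 (1.26). OAS3 was then 2-fold lower in 5 knockdowns in place of 3, siEZH2 (-2.25), siSMARCA4 (-1.62), siEED (-1.60), siPCAT1 (-1.23) and the library labelled siMALAT1 (-1.37), and 2-fold higher in siFOXA1 too (1.07). That pseudocount also raised the share of kept genes 2-fold higher by over 1.5 times in all 12 knockdowns, to between 1.28% and 6.10%, against 0.323% to 3.52%. Small RNA entries, when kept, raised it by over 1.5 times in 10 knockdowns, to between 0.992% and 1.94%. With the median of the other 11 knockdowns as the reference, the count was 0 in siBRCA1, siRAD21, siKDM1A, siCTCF and siEZH2, the siBRCA1 median was 0.20, and the sign of the median turned in siCTCF (-0.061), siEZH2 (-0.19), siPCAT1 (-0.42), siEED (-0.66), siSMARCA4 (-0.67) and the library labelled siMALAT1 (-0.73). The cause of these moves was not tested. Of 96 differences of a member in a knockdown, 40 changed sign with that reference and none with the other 3 alternatives. A pseudocount cannot turn a sign, and quantile normalization and centring moved values little, so those alternatives were hardly able to show a change. With 1 minus Pearson r as the distance, 5 of the 6 nearest genes were shared. No depth is known behind any value, which limits the reading of low FPKM such as those of OAS2.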
